A study of Mus musculus with 4 samples.

Results

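Mn1 and the BEN-domain genes Bend2, Bend3, Bend4, Bend5, Bend6 and Bend7 were followed in live tdTomato-positive forebrain cells of neonatal mice, with and without the fusion gene MN1:BEND2. The 7 genes were taken by symbol from a table of 54348 rows, in which each of these symbols has 1 row. Control mice had the genotype PdgfraCreER;AI14 and fusion mice the genotype PdgfraCreER;MN1:BEND2;AI14, and there were 2 libraries of each. Both groups therefore carried PdgfraCreER, a tamoxifen-activated recombinase made under control of the Pdgfra gene, and the AI14 reporter, which makes tdTomato after recombination. Both groups received tamoxifen into the abdomen on postnatal days 0 and 1 and were killed on day 4. Neither the promoter of the fusion gene nor the species of its sequence is given in the sources used here. No label ties the 2 libraries of a group to separate mice, so p-values speak only of how far these libraries scatter, and that scatter may be technical. The comparison asks how the mouse genes that correspond to both partners of the fusion, and the relatives of one partner, were expressed in cells of the Pdgfra lineage once the fusion was present.

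Mn1 encodes a largely disordered transcriptional coregulator that works with histone acetyltransferases and nuclear receptors, is needed for growth of the palate, and acts as an oncogene in myeloid leukaemia. The BEN domain is a small DNA-binding fold of metazoan and viral proteins, found mostly in repressors and chromatin factors. Joining MN1 to the BEN domains of BEND2 makes the fusion protein of astroblastoma, a brain tumour. In normal mice Bend2 is known for its role in the male germ line, while Bend5 and Bend6 are neural repressors.

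Promoter sequences from RefSeq (build GRCm38.p6, 250 bases before to 50 bases after the annotated start) were at hand for 4 of the 7 genes, namely Bend3 to Bend6. Those of Bend4, Bend5 and Bend6 are shown because these genes were tested and their results differed: Bend4 was called lower, and Bend5 and Bend6 were not. They are written 5′ to 3′ on the strand of the gene, with CpG dinucleotides in capitals.
Bend4 promoter, chr5:67427750-67428049, minus strand: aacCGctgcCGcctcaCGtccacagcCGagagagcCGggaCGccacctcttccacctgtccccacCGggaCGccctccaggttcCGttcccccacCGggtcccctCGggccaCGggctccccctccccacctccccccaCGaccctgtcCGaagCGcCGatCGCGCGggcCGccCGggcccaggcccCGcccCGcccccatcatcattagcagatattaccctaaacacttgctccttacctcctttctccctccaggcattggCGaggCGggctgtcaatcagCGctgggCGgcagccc
Bend5 promoter, chr4:111414756-111415055, plus strand: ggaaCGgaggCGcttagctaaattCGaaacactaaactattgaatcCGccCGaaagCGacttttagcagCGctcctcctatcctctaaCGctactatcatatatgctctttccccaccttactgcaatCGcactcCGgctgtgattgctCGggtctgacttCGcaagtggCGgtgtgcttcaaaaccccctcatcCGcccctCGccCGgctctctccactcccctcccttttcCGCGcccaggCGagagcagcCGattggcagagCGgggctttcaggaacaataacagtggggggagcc
Bend6 promoter, chr1:33907718-33908017, minus strand: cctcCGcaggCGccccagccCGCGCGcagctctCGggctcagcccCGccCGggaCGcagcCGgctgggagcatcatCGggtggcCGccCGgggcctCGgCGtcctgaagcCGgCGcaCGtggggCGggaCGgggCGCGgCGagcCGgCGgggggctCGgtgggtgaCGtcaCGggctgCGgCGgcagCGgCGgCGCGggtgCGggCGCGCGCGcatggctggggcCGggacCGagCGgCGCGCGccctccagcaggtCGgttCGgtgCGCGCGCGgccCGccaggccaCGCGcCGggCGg
The Bend4 window holds 27 CpG dinucleotides, the Bend5 window 21 and the Bend6 window 56, against a median of 7 over 32851 promoter windows of the same length. The Bend6 window shown is thus among the most CpG-rich of all, with fewer in 99.8% of windows. Another window listed for Bend6, chr1:33907572-33907871, holds 48, with fewer in 98.8% of windows. The palindrome CCAATTGG, bound by the fly BEN-domain repressor Insensitive, and the palindrome TCTCGCGAGA, bound by the BEN-domain protein Banp, were searched for; each reads the same on both strands, and neither contains the other. Neither occurred in the 3 windows shown, nor in the other windows listed for Bend3 to Bend6. The palindromes occur in 0.435% and 0.466% of all windows.

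Values are TPM, each gene's share of all transcripts after correction for length. Levels of different genes can be set side by side only as far as that correction holds, and the read depth of a library is unknown. Mitochondrially encoded genes held 7.30% to 10.1% of TPM in the control libraries and 26.2% to 48.7% in the fusion libraries, and genes at 1 TPM or more numbered 12772 to 13219 and 9050 to 10017. Of the 8 oligodendrocyte precursor markers checked, none was at 0 in any library; 5 were called lower, beside 51.3% of all tested genes, and after rescaling 1 was lower and 1 higher. Their summed level was 948 to 1260 TPM in the control and 399 to 535 TPM in the fusion libraries, and Pdgfra itself had 337, 429, 123 and 192 TPM in the order control 1, control 2, fusion 1, fusion 2. The Y-linked gene Eif2s3y had 121 and 122 TPM without the fusion and 0 TPM in each library with it, so sex and genotype cannot be told apart in anything that follows. Among the 12871 genes that reached 1 TPM in 2 or more libraries, the median change from control to fusion was -1.41 on the log2(TPM + 1) scale, and each member's change has to be read against it.

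Of the 7 genes, 6 passed this filter and were tested; Bend3 did not. Mn1, Bend4 and Bend7 were lower in the fusion libraries, Bend2 was higher, and Bend5 and Bend6 did not pass the threshold (limma, adjusted p under 0.05 over all tested genes). Of all tested genes 51.3% were called lower and 4.95% higher by the same rule. The 3 lower calls among 6 are therefore about the share seen across the table. Both fusion libraries lay below both control libraries for 4 of the 6 (71.1% of all tested genes) and above both for 1 (10.2%). The median change of the 6 was -1.19. Bend2 passed the filter only through the fusion libraries and Bend7 only through the control libraries, so for these 2 the filter itself required a difference. When each library was rescaled by its median ratio, which moved the median of all genes to -0.15 and the share of lower calls among all calls from 91.2% to 56.5% (50.1% with quantile-normalized values), 0 members were called lower (18.6% of all tested genes) and 1, Bend2, higher (14.3%).

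**Figure D1:**
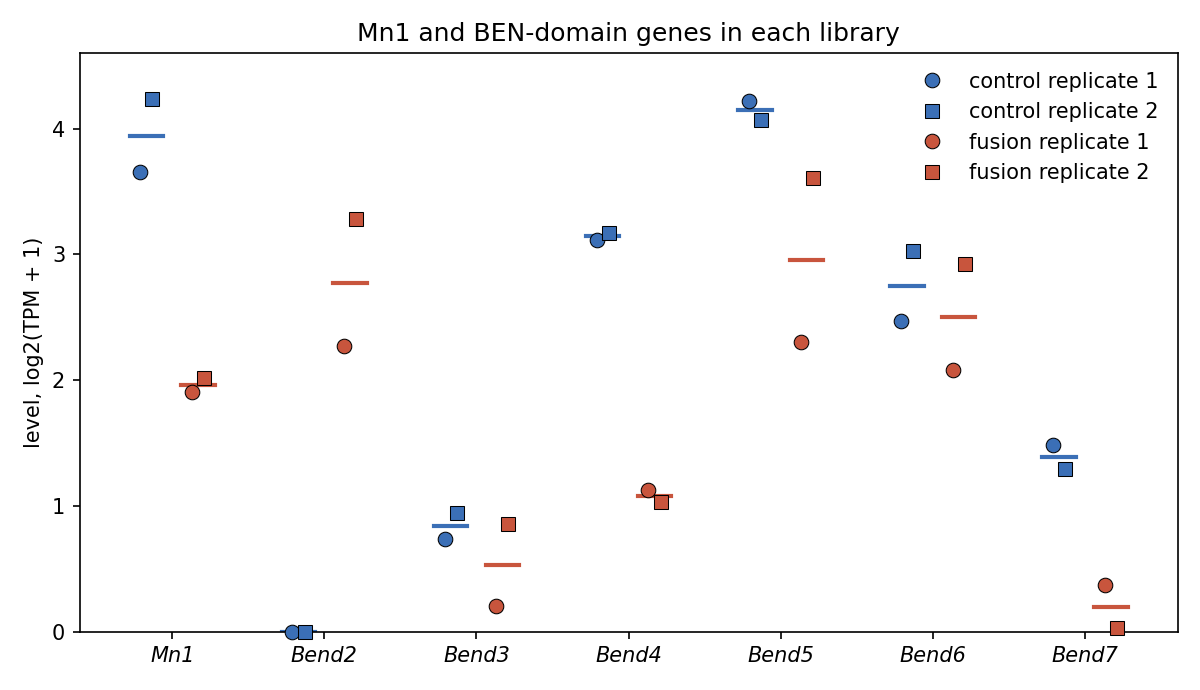
Levels of Mn1 and 6 BEN-domain genes as log2(TPM + 1) in each library (circles, replicate 1; squares, replicate 2; bars, group means; 2 libraries per group). The fusion points lie under the control points for Mn1, Bend4, Bend5 and Bend7, over them for Bend2, and the groups overlap for Bend3 and Bend6.

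Mn1, the mouse counterpart of the 5′ partner in the fusion, fell to 19.7% of its control level. It had 11.6 and 17.8 TPM in control replicates 1 and 2 and 2.75 and 3.04 TPM in fusion replicates 1 and 2. Both fusion values lay well under the lower control value, and the fusion libraries were closer to each other than the control libraries were. The group means were 14.7 ± 4.41 and 2.90 ± 0.202 TPM (SD, n = 2), and the log2 change was -1.98 ± 0.44 (SE, adjusted p = 0.0158, limma). A more negative change was found for 34.0% of tested genes, so Mn1 stood 0.58 under the median gene on this scale. After rescaling the change was -0.47 (adjusted p = 0.449), with quantile-normalized values -0.45 (adjusted p = 0.438), and neither passed. Without control replicate 1 or control replicate 2 the change was -2.27 and -1.69, and neither fit passed with only 1 control library left. Mn1 spans chr5:111417362-111457033 on the plus strand (GRCm38, GENCODE M21), has at most 2 exons, and its longest transcript of 6860 bases is 61.0% GC. The sources used here do not say whether transgene reads were counted in this row.

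The row named Bend2, after the 3′ partner, had values above 0 in the fusion libraries alone, and it may count the fusion gene itself rather than the mouse gene. Fusion replicates 1 and 2 had 3.82 and 8.72 TPM, and each control library is listed at 0. The replicates of the fusion group thus differed more than those of Mn1 did, and the library with the lower value was the one with 48.7% mitochondrial TPM; with mitochondrially encoded and ribosomal protein genes left out of the total, the values became 8.41 and 13.3 TPM. The log2 change was 2.77 ± 0.44 (SE, adjusted p = 0.00640, limma), and it stayed past the threshold after rescaling (3.55, adjusted p = 0.0112) and with quantile-normalized values (3.58, adjusted p = 0.00784). The direction was fixed beforehand, because the row passed the filter only through the fusion libraries and a listed 0 stays lowest under either scaling. These calls after rescaling are therefore no further support. The change was 2.77 without control replicate 1 and also without control replicate 2, and neither fit passed with only 1 control library left. The row has its symbol where the Ensembl identifier should be. The sequence behind the row is not stated in the sources used here, so neither position nor length is printed. In fusion replicates 1 and 2 its level was 1.39 and 2.87 times that of Mn1. In the same libraries it stood above 59.5% and 69.2% of tested genes, whereas Mn1 stood above 53.0% and 47.1%.

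Bend4 and Bend7 were the relatives of Bend2 that were called lower. Bend4, a BEN-domain gene of largely unknown function, had 7.68 and 7.98 TPM without the fusion and 1.19 and 1.05 TPM with it. Replicates were close in both groups and the groups were far apart, with 14.3% of the control level left (log2 change -2.06 ± 0.40, SE, adjusted p = 0.0103, limma). After rescaling the change was -0.76 (adjusted p = 0.244). Without control replicate 1 or 2 it was -2.08 and -2.03, and neither fit passed with only 1 control library left. Bend7, another member without a settled function, had 1.8 and 1.45 TPM without the fusion and 0.292 and 0.0215 TPM with it. It was low everywhere and nearly absent from fusion replicate 2 (log2 change -1.19 ± 0.25, SE, adjusted p = 0.0136, limma). On this scale the change lies 0.22 above the median change of all tested genes (-1.41), but adding 1 limits how far so low a gene can fall. With 0.1 added to each TPM instead, the change of Bend7 was -2.98 and the median of all tested genes -1.99. Of its control level 9.65% was left. Bend5, which was not called, had the same rounded change on log2(TPM + 1), although 45.3% of its control level was left. The change of Bend7 turned to 0.13 with quantile-normalized values (adjusted p = 0.737) and was -0.52 after rescaling (adjusted p = 0.263). Without control replicate 1 or 2 it was -1.09 and -1.29, and neither fit passed. Bend4 lies at chr5:67392147-67428310 on the minus strand, on the same chromosome as Mn1, and Bend7 at chr2:4717831-4802142 on the plus strand.

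Bend5 and Bend6, the neural BEN-domain repressors, did not pass the test in either direction. Bend5, whose product binds DNA through its BEN domain, had 17.6 and 15.8 TPM without the fusion and 3.95 and 11.2 TPM with it. Both fusion values were under the control values, but they lay far apart, with the higher one in fusion replicate 2. The log2 change was -1.19 ± 0.56 (SE, adjusted p = 0.122, limma). Without fusion replicate 2 it was -1.84 and passed (adjusted p = 0.0120); after rescaling it turned to 0.41 (adjusted p = 0.535) and with quantile-normalized values to 0.43 (adjusted p = 0.518). Bend5 (chr4:111415006-111460298, plus strand) lies inside the span of Agbl4 on the same strand, which had 2.24 and 1.30 TPM without the fusion and 0 and 3.93 TPM with it; the division of shared reads between the pair is uncertain.

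Bend6, an antagonist of Notch signalling in neural stem cells, had the smallest log2 change of the tested members on deposited TPM, though not after rescaling. It had 4.53 and 7.17 TPM without the fusion and 3.24 and 6.57 TPM with it, so the groups overlapped. Its mean in the fusion libraries was 83.8% of that in the control libraries (log2 change -0.25 ± 0.52, SE, adjusted p = 0.704, limma), while 79.1% of tested genes had a more negative change. After rescaling the 4 values were 2.65, 3.59, 7.36 and 9.88 in the same order, with both fusion values above the control values; the change turned to 1.22 ± 0.44 without passing (SE, adjusted p = 0.0949). Bend6 was called higher under 1 setting, the correction for GC content and transcript length (1.58, adjusted p = 0.0378). It spans chr1:33852052-33907816 on the minus strand. Bend3, a repressor that binds the heterochromatin around centromeres, had 0.668 and 0.928 TPM without the fusion and 0.153 and 0.814 TPM with it. The groups overlapped, all 4 values were under the filter, and with every expressed gene tested its log2 change was -0.31 ± 0.33 (SE, adjusted p = 0.516, limma). It spans chr10:43478831-43515396 on the plus strand.

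**Figure D2:**
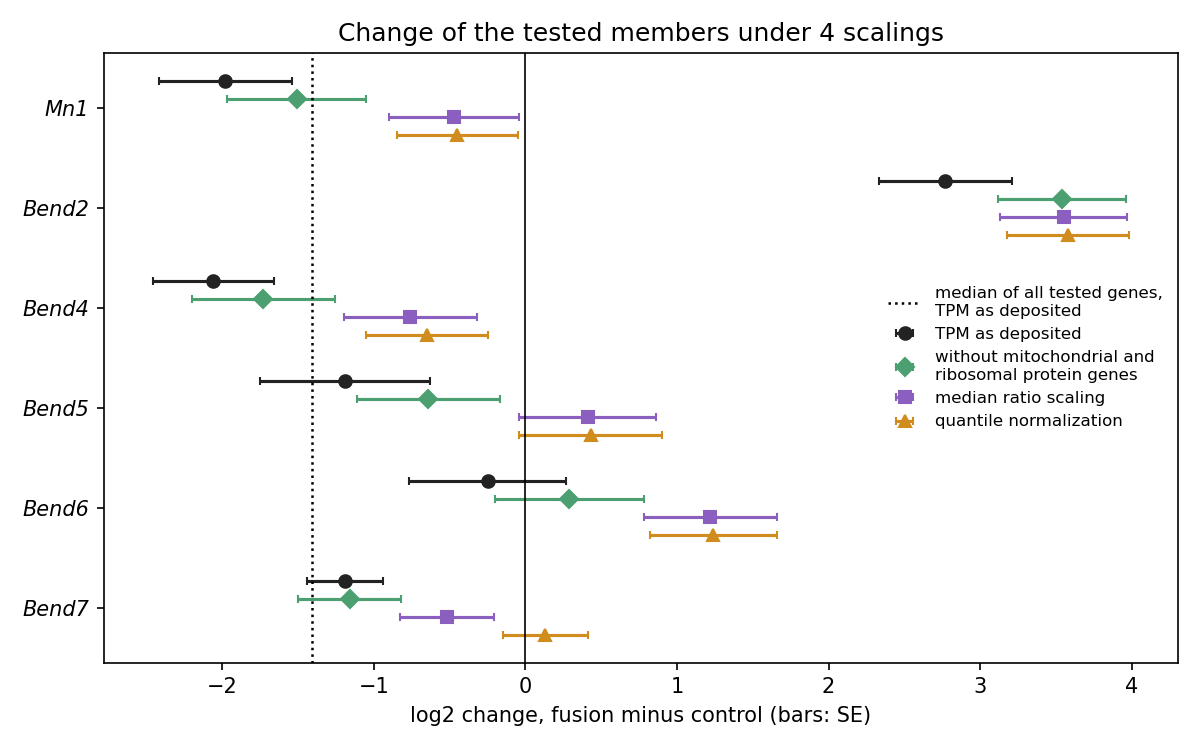
Log2 change (fusion minus control) of the 6 tested members with its SE under 4 ways of scaling the libraries; the dotted line is the median of all tested genes for TPM as deposited (-1.41). Bend2 stays right of 0 and Mn1 and Bend4 left of 0 under all 4, while Bend5, Bend6 and Bend7 cross it.

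In the control libraries the order of levels was Bend5 (16.7 ± 1.31 TPM), Mn1 (14.7 ± 4.41), Bend4 (7.83 ± 0.212), Bend6 (5.85 ± 1.86), Bend7 (1.63 ± 0.247), Bend3 (0.798 ± 0.184) and Bend2 at 0 (SD, n = 2). Bend5 and Mn1 did not differ beyond their spread, since control replicate 2 had more Mn1 and control replicate 1 more Bend5. In the fusion libraries the order was Bend5 (7.56 ± 5.11 TPM), Bend2 (6.27 ± 3.46), Bend6 (4.91 ± 2.35), Mn1 (2.90 ± 0.202), Bend4 (1.12 ± 0.0991), Bend3 (0.484 ± 0.468) and Bend7 (0.157 ± 0.192). The ranges of Bend5, Bend2 and Bend6 overlapped, though each fusion library by itself had them in this order; Bend3 and Bend7 changed places between the fusion libraries. Ratios inside a library do not depend on its total. The ratio of Bend6 to Mn1 was 0.391 and 0.402 in the control and 1.18 and 2.16 in the fusion libraries, so Bend6 lay under Mn1 in each control library and over it in each fusion library. Mn1 to Bend5, by contrast, gave 0.658 and 1.13 in the control and 0.697 and 0.272 in the fusion libraries, which overlap. These ratios were picked after their values were seen and were not tested.

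**Figure D3:**
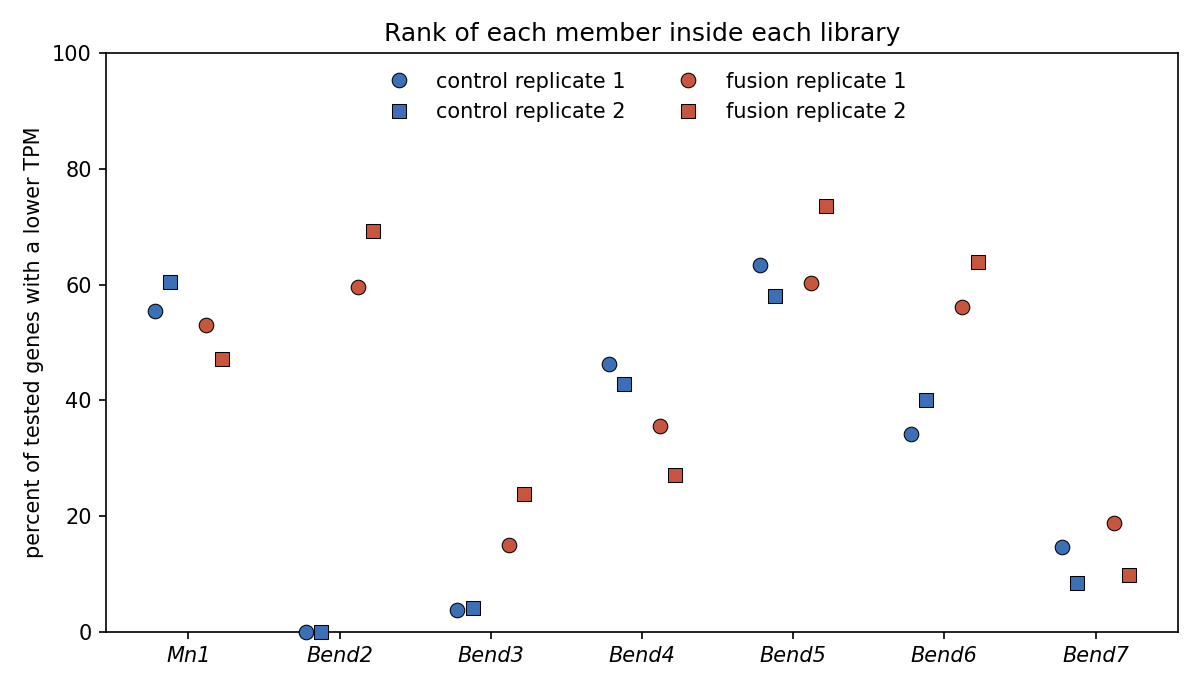
Rank of each member inside each library, as the percent of the 12871 tested genes with a lower TPM (circles, replicate 1; squares, replicate 2). A low gene can rise in rank while its TPM falls. Bend6 stands at 34.2 and 40.1 in the control and 56.2 and 63.9 in the fusion libraries, and Bend4 at 46.3 and 42.8 against 35.5 and 27.1.

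Ranks inside a library do not depend on its total either. They do depend on which genes the filter kept and on how those genes changed. Fewer genes reached 1 TPM in the fusion libraries, so a low gene can rise in rank while its TPM falls. Mn1 stood above 55.4% and 60.5% of tested genes in the control libraries and above 53.0% and 47.1% in the fusion libraries, a smaller shift than its TPM shows. Bend4 stood above 46.3% and 42.8% in the control and 35.5% and 27.1% in the fusion libraries. Bend6 stood above 34.2% and 40.1% in the control and 56.2% and 63.9% in the fusion libraries, and Bend5 stood at 63.4% and 58.1% against 60.2% and 73.5%, with the groups overlapping. Bend3, whose TPM overlapped, stood above 3.8% and 4.2% of tested genes in the control and 15.1% and 23.8% in the fusion libraries. Bend7 stood above 14.6% and 8.4% against 18.8% and 9.8%. Bend3 did not pass the filter itself, so a control rank near the bottom was to be had from the filter alone. Its rank in replicate 1 was higher with the fusion although its TPM was lower (0.153 against 0.668). The part of the filter in these rank shifts was not tested. Among Bend3 to Bend7, whose summed level was 32.3 and 33.3 TPM without the fusion and 8.83 and 19.6 TPM with it, Bend6 made up 14.0% and 21.5% of the control sum and 36.7% and 33.5% of the fusion sum. Bend4 made up 23.8% and 24.0% of the control sum and 13.5% and 5.36% of the fusion sum, while the share of Bend5 overlapped between groups (47.3% to 54.5% against 44.7% to 56.9%).

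**Figure D4:**
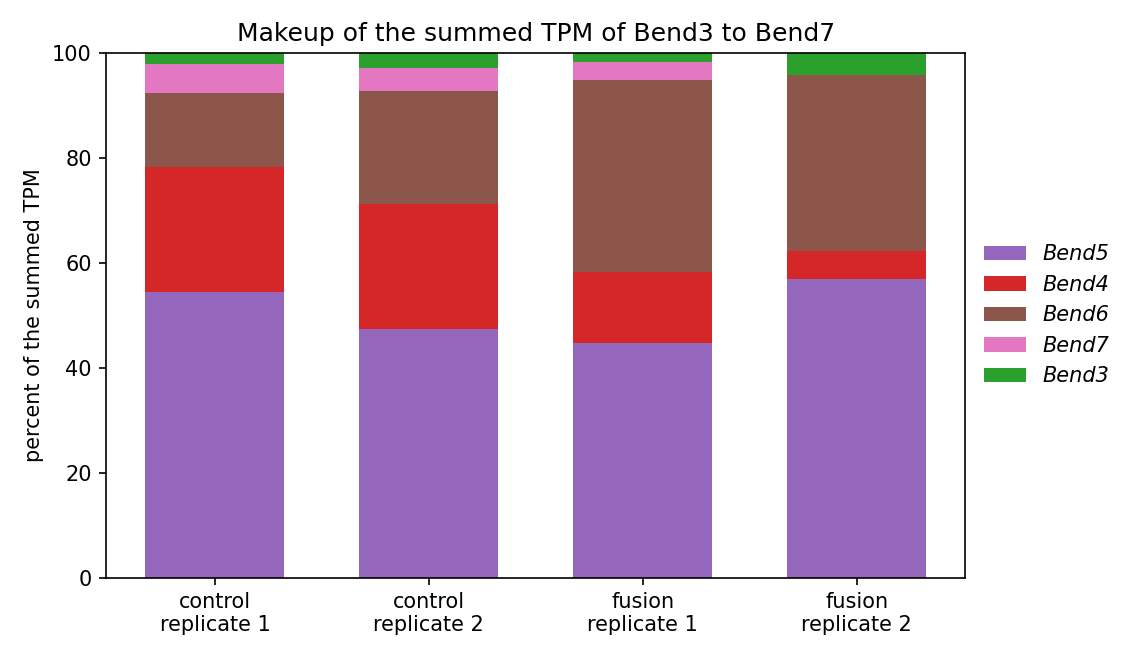
Percent of the summed TPM of Bend3 to Bend7 held by each gene in each library. Bend6 holds 14.0% and 21.5% in the control and 36.7% and 33.5% in the fusion libraries, Bend4 23.8% and 24.0% against 13.5% and 5.36%.

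For the tested members other than Bend7, the 3 tested genes with the most similar profile over the 4 libraries were found, as the smallest Euclidean distance of log2(TPM + 1) values centred on the gene's mean. With 4 libraries such a likeness is a description and says nothing of shared function. Nearest to Mn1 were Slco1a6, Ptpn23 and Nkx2-2 (distances 0.052, 0.080 and 0.083); Nkx2-2, a transcription factor of the oligodendrocyte lineage, had 35.3, 54.7, 9.99 and 11.6 TPM in the order control 1, control 2, fusion 1, fusion 2. Nearest to Bend2 were AI661453, Lefty1 and Bcl2a1a (0.177 to 0.209), each at 0.176 TPM or less in the control libraries; Bcl2a1a, a relative of Bcl2 expressed in white blood cells, had 4.50 and 8.09 TPM in the fusion libraries. Bend4 was nearest to Pym1, Rnd2 and Shoc2. Nearest to Bend5 were Stx8, Commd2 and Dram2, all higher in fusion replicate 2 than in fusion replicate 1, and nearest to Bend6 were Elk4, Neto2 and Gpam, whose groups overlapped as its own did.

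Outside the Bend-named genes, the mouse genome has other BEN-domain proteins, and of the 3 looked up Banp fell most. Banp, which binds unmethylated copies of its CGCG motif at promoters of housekeeping genes, had 13.6 and 16.0 TPM without the fusion and 0.0346 and 0.495 TPM with it. Every fusion value was far under both control values, and the log2 change was -3.66 (adjusted p = 0.00387, limma); 8.2% of tested genes had a more negative one. Banp passed the filter only through the control libraries, so the filter itself required a difference. The change stayed past the threshold after rescaling (-2.71, adjusted p = 0.016). A readthrough gene model, Galnt2l, overlaps it on the same strand and had 8.69, 12.6, 0.173 and 3.63 TPM in the order above, so the division of shared reads is uncertain. Nacc2, for a repressor that pairs a BTB domain with a BEN domain, had 3.98 and 4.22 TPM without the fusion and 0.620 and 1.54 TPM with it (log2 change -1.33, adjusted p = 0.0384, limma), and it did not pass after rescaling (-0.19). Nacc1, its close relative, had 0.667, 1.31, 0.0131 and 0.517 TPM and was not tested.

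**Figure D5:**
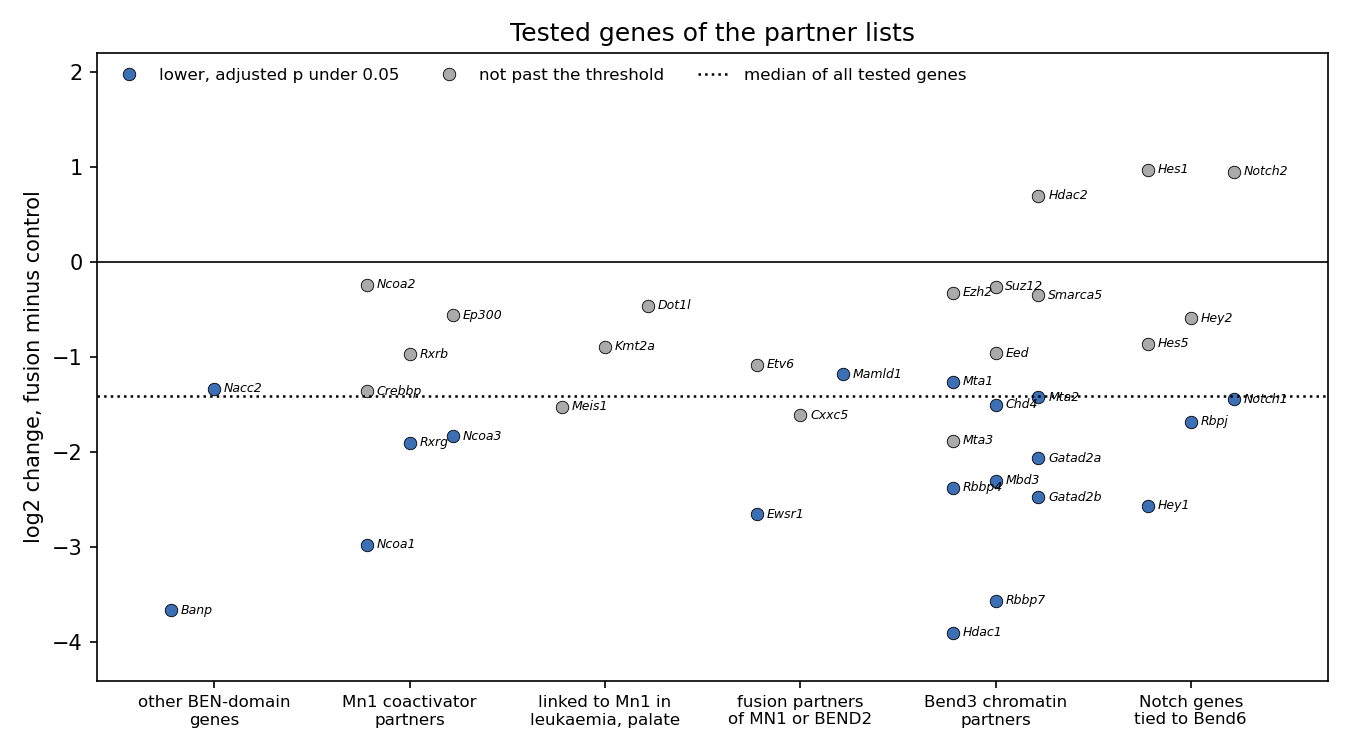
Log2 change (fusion minus control) of each tested gene in 6 lists of genes tied to Mn1 or the BEN-domain family; blue points passed the threshold, grey points did not, and the dotted line is the median of all tested genes (-1.41). Hdac1 (-3.90) and Banp (-3.66) are the lowest, and Hes1, Notch2 and Hdac2 lie above 0 without passing.

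The tested coactivators and receptors through which Mn1 is known to act had a median change close to that of all tested genes. The genes of this list left untested were all receptors, so the median says little of the receptors. Of 12 coactivator partners (acetyltransferases, p160 coactivators, retinoid and vitamin D receptors) 7 were tested, of which 3 were lower, none was higher and 4 did not pass, where 51.3% of all tested genes were lower and 4.95% higher; the median change was -1.36. Ncoa1, a p160 coactivator, fell from 11.3 and 17.8 TPM to 0.560 and 1.43 TPM (log2 change -2.97, adjusted p = 0.00706). Rxrg, a retinoid X receptor of the oligodendrocyte lineage, fell from 7.84 and 10.1 to 1.71 and 1.61 TPM, and Ncoa3, a coactivator that Mn1 binds, from 6.01 and 5.35 to 0.397 and 1.54 TPM. Ep300, the acetyltransferase that works with Mn1, had 2.39, 3.22, 1.66 and 1.46 TPM and did not pass. After rescaling 1 of the 7, Ncoa1, was lower and the signs were mixed, with 3 of 7 above 0.

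Of 6 genes linked to Mn1 in leukaemia or the palate, 3 were tested and none passed (median -0.89), Kmt2a having passed the filter only through the control libraries. Meis1, a homeobox partner in Mn1 leukaemia, had 5.49 and 7.48 TPM without the fusion and 4.01 and 0.332 TPM with it, so the groups did not overlap but the fusion libraries lay far apart. Hoxa9 and Hoxa10 were listed at 0 in all 4 libraries, and Tbx22, a palate gene downstream of Mn1, was at 0.0450 TPM or less. Of the genes that form fusions with MN1 or BEND2 in human tumours, 4 were looked up. All 4 had both fusion libraries below both control libraries, as did 71.1% of all tested genes, and 2 of them passed (51.3% of all tested genes were lower). Ewsr1, for an RNA-binding protein, fell from 59.7 and 118 to 13.2 and 11.9 TPM and Mamld1 from 1.83 and 3.47 to 0.610 and 0.522 TPM (through the control libraries alone past the filter, which required a difference), while Cxxc5 (8.39, 8.06, 0.723 and 4.33 TPM) and Etv6 did not pass. After rescaling 0 of the 4 passed.

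Of 17 chromatin partners of Bend3, 15 were tested; 9 were lower, none was higher and 6 did not pass (median -1.50). This is near the 51.3% called lower among all tested genes, and Mta1, 1 of the 9, passed the filter only through the control libraries. Among them are the subunits of the NuRD deacetylase complex, which were not alike. Hdac1 fell from 100 and 121 TPM to 6.56 and 6.34 TPM (log2 change -3.90, adjusted p = 0.00367), whereas its close relative Hdac2 had 26.7 and 24.3 TPM without the fusion and 40.2 and 43.9 TPM with it without passing (adjusted p = 0.132). Rbbp7, Gatad2b and Rbbp4 fell, Rbbp7 from 295 and 269 to 15.9 and 33.2 TPM. Ezh2, Eed and Suz12, the core of the PRC2 methyltransferase, did not pass, and Ezh2 had 34.3, 45.1, 33.8 and 28.8 TPM. After rescaling 2 were lower (Hdac1 and Rbbp7), 2 were higher (Hdac2 and Ezh2) and 11 did not pass, where 18.6% of all tested genes were lower and 14.3% higher.

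Of 8 Notch pathway genes tied to Bend6, 7 were tested; 3 were lower, none was higher and 4 did not pass (median -0.86), beside 51.3% lower and 4.95% higher among all tested genes. Notch1 passed the filter only through the control libraries and Notch2 only through the fusion libraries, so for both the filter required a difference. Rbpj, the DNA-binding factor that Bend6 works through, fell from 8.77 and 8.26 to 1.94 and 1.99 TPM (log2 change -1.68, adjusted p = 0.0200, limma). Hey1, a Notch target, fell from 28.2 and 22.9 to 1.90 and 5.87 TPM, and the receptor gene Notch1 from 2.79 and 3.43 to 0.393 and 0.628 TPM. The target Hes1 had 10.5 and 8.96 TPM without the fusion and 20.1 and 19.8 TPM with it, with no overlap, but did not pass (adjusted p = 0.0749). After rescaling none of the 7 was lower (18.6% of all tested genes) and 2, Hes1 and Notch2, were higher (14.3%).

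Markers of other cells are to be read against the same shares, 51.3% lower and 4.95% higher among all tested genes. Of 8 microglia and macrophage markers 4 rose and 1 fell among 7 tested, with a summed level of 17.5 to 64.9 TPM in the control and 464 to 662 TPM in the fusion libraries; after rescaling the counts were also 4 and 1. Fcer1g held most of the sum in the fusion libraries, with 27.4, 1.17, 327 and 480 TPM in control 1, control 2, fusion 1 and fusion 2. P2ry12, the gene that fell, passed the filter only through the control libraries. It was at 0 in both fusion libraries, and Cx3cr1 was at 0 in fusion replicate 1. Of 6 fibroblast markers, all tested, 3 rose and none fell (36.9 to 107 against 462 to 922 TPM), and 5 were higher after rescaling. Mgp held most of the sum in the fusion libraries, with 0, 1.34, 364 and 717 TPM in the same order. For Dcn and Lum the groups overlapped, and Foxc1 passed the filter only through the fusion libraries. Of 7 neuron markers 3 of 5 tested fell (179 to 184 against 28.5 to 46.3 TPM; Rbfox3 and Slc17a7 at 0 in fusion replicate 2), with 2 lower after rescaling and Syt1 past the filter only through the control libraries. Of 6 astrocyte markers 3 of 5 tested fell (220 to 272 against 30.8 to 63.1 TPM, none at 0), while after rescaling 1 was lower and 1 higher. Endothelial markers summed to at most 2.33 TPM in each library, and the 1 tested, Cdh5, was higher after passing the filter only through the fusion libraries; the pericyte list, which holds Cspg4, also a precursor marker, had 48.4 to 69.7 TPM against 8.23 to 26.3 TPM, and Cspg4 was the 1 of its 2 tested genes that fell. The part of these cells, of the mitochondrial share and of sex in the values of Mn1 and the Bend genes was not tested, and in bulk samples fewer cells of a type and less RNA per cell cannot be told apart.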

How the data were processed

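RNA-seq libraries were made from full-length amplified cDNA of sorted tdTomato-positive cells, per the labels' protocols, which do not state a strand-specific kit. The authors deposited 1 table of TPM per gene and library. The submitters' processing notes name Trimmomatic 0.39, Salmon 1.8.0, GRCm38 and mm10; annotation and index are not stated in the sources used here. TPM keeps no depth, so no counting interval is given and a 0 is described only as listed at 0. Columns were matched to samples by genotype and replicate number. Genes that reached 1 TPM in 2 or more of the 4 libraries were tested on log2(TPM + 1), which understates changes of low genes, with limma 3.58.1 in R 4.3.3 (mean-variance trend, 2-sided, Benjamini-Hochberg over all 12871 genes, threshold 0.05). The fit was tested on simulated data in which few genes changed, as many up as down. It was not tested on simulated data with a shift of most genes, as seen here. GC content and transcript length came from the longest GENCODE M21 transcript. Median ratio scaling used 10965 genes above 0 in every library.

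The members, the 6 partner lists and the marker lists were chosen with earlier results of these data known. Named were all members, up to 4 called genes of each list with the largest change (up to 3 of highest mean where none passed; any gene of a list of 6 or fewer), and the 3 genes nearest in profile to each tested member (those of Bend7 are not reported here). Ep300, Hdac2, Ezh2, Eed, Suz12, Hes1, Notch2, Agbl4, Galnt2l, Eif2s3y and the genes of the closing section were picked with their values in view. The test was repeated with pseudocounts 0.1 and 5, unfiltered, with a mean TPM of 5 as the filter, after median ratio scaling or quantile normalization, on totals without mitochondrially encoded and ribosomal protein genes, with no trend or robust estimates, with a replicate block, leaving out each library and, added after seeing the data, a loess correction for GC content and length (span 0.3).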

Additional observations from a re-analysis of the deposited data

How the results depend on the processing

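Of all tested genes, 637 were called higher; this became 353 with no filter, 405 with a mean of at least 5 TPM, 1843 with median ratio scaling, 1948 with quantile normalization, 961 without mitochondrial and ribosomal protein genes, 1878 with the GC content and length correction (chosen after seeing the data), and 14 to 1084 with a library left out. The 6606 called lower became 2392, 1955 and 1952 with median ratio scaling, quantile normalization and the GC content and length correction, and 1025 to 7987 with a library left out. The 3 members called lower became 2 with no filter (without Bend7, adjusted p = 0.0652), 1 with a mean of at least 5 TPM, where Bend4 and Bend7 were not tested, 0 with median ratio scaling, quantile normalization or the GC content and length correction, and 0 to 4 with a library left out: 0 without either control library and 4, Bend5 included, without fusion replicate 2. Bend2, the 1 member called higher, gave 0 with a mean of at least 5 TPM, where it was not tested, and 0 to 1 with a library left out; it has no GC value, so the GC content and length correction gives none for it, and Bend6 is the 1 member called higher there. The change of Bend5 turned to 0.41 with median ratio scaling, 0.43 with quantile normalization and 1.22 with the GC content and length correction. That of Bend6 turned to 1.22, 1.24 and 1.58 under the same 3 and to 0.29 without mitochondrial and ribosomal protein genes, and ran from -0.66 to 0.17 with a library left out (0.03 without control replicate 2, 0.17 without fusion replicate 1). That of Bend7 turned to 0.13 with quantile normalization and 0.40 with the GC content and length correction. Where a library is left out, the lone sample of its group is assumed to vary like the other group. Pseudocounts, trend and robust settings ended no call of a member. Beyond fewer genes or samples where stated, the cause was not tested. Same-numbered libraries deviated with a correlation of -0.0398. With 2 libraries per group this shows no shared effect of the number but cannot exclude a pairing. A replicate block gave 642 higher and 6978 lower calls, with 1 and 3 members. TPM keeps no depth, so the counting error of low members such as Bend3 and Bend7 is unknown.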

Other observations

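Genes that lie next to the members were read as well. Pitpnb, the coding gene nearest to Mn1 on one side (29003 bases away, for a phospholipid transfer protein), had 69.3 and 73.5 TPM without the fusion and 1.11 and 8.55 TPM with it, a log2 change of -4.01 against -1.98 for Mn1 (adjusted p = 0.00999, limma); after rescaling it was -2.50 and did not pass (adjusted p = 0.055). Dst, whose start lies 409 bases from that of Bend6 on the other strand, had 11 and 18.7 TPM without the fusion and 3.93 and 3.14 TPM with it (log2 change -1.77, adjusted p = 0.0251, limma); after rescaling it did not pass (-0.22, adjusted p = 0.76). C330024D21Rik, the noncoding transcript Bendr whose locus is known to act on Bend4 in mouse stem cells, lies 35587 bases from Bend4. It had 2.51 and 1.11 TPM without the fusion and 0 TPM in each library with it (log2 change -1.44, adjusted p = 0.0142), so it passed the filter only through the control libraries; after rescaling its change was -0.97 (adjusted p = 0.0576). These genes were picked after their values were seen.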
